A study of Homo sapiens with 9 samples.

Results

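The immediate early and AP-1 genes described here are FOS, FOSB, JUN, JUNB, JUND, EGR1, KLF6, IER2, IER3 and DUSP1. They were taken as every probe set annotated to 1 of these symbols and to no other gene, which gave 19 probe sets of 10 genes among 22277 probe sets on the array. Expression had been measured on Affymetrix arrays in LNCaP, an androgen-responsive human prostate cancer line that came from a lymph node metastasis, and LNCaP is the only line in the series. Before treatment all cultures were starved of steroid hormones for 2 days in 10% serum stripped with charcoal. One group then received 20 µM gedunin, a limonoid from the neem family of trees that interferes with the chaperone HSP90, together with 1 nM of the synthetic androgen R1881. Another received 1 nM R1881 with DMSO, and the last received ethanol with DMSO as vehicle. Each group had 3 arrays marked as biological replicates, no group received gedunin alone, and nothing says that replicates came from separate days or stocks, so p-values measure the spread between these cultures. For the R1881 group the array titles state a treatment of 6 h but descriptions and protocols state 24 h, while the other groups have 24 h throughout. For genes whose transcripts can change within an hour of a stimulus this length matters, and in each comparison with the R1881-labelled arrays time and treatment cannot be told apart if the titles hold.

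Immediate early genes are transcribed within minutes of a growth factor, stress or other signal, without new protein synthesis. MAP kinases activate factors that are already on their promoters, such as serum response factor with its ternary complex partners and CREB, and most of the transcripts decay within hours. Fos and Jun proteins pair through leucine zippers to form AP-1, which binds DNA and drives later genes, and DUSP1 removes the activating phosphates from MAP kinases and so closes the loop. In prostate cells AP-1 components are known to meet the androgen receptor, and c-Jun has been described both as its coactivator and as an inhibitor.

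The bases before the start sites of 4 members are shown because the first 3 were called higher with 2 or more probe sets in both gedunin comparisons, while EGR1, the textbook serum response target, stayed dim. Each run holds the 250 bases before the start in GRCh38.p14 from RefSeq, 5′ to 3′, and capitals mark letters that match a searched motif. The DUSP1 window is chr5:172771196-172771445, minus strand. The KLF6 window is chr10:3785210-3785459, minus strand. The JUN window is chr1:58784048-58784297, minus strand. The EGR1 window is chr5:138465229-138465478, plus strand.
DUSP1: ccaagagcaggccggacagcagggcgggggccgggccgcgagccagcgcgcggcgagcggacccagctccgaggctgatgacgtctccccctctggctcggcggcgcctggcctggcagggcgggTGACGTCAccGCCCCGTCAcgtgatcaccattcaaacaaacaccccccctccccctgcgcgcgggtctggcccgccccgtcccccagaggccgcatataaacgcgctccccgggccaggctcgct
KLF6: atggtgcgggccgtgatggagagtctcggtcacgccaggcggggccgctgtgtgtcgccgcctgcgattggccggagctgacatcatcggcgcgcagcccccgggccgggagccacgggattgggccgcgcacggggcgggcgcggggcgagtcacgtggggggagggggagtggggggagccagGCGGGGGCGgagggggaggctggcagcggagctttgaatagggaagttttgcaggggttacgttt
JUN: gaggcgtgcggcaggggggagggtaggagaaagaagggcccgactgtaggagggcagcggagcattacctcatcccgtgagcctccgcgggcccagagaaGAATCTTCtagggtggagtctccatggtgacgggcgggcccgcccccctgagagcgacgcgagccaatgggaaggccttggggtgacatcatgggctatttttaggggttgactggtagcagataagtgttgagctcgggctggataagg
EGR1: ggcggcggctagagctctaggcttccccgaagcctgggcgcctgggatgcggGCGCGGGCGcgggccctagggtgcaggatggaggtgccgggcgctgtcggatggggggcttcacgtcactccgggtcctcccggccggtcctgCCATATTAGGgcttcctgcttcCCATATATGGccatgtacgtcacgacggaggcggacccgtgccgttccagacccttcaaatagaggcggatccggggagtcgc

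Both strands were searched for TGANTCA (AP-1), TGACGTCA (the cyclic AMP response element), GCGNGGGCG (EGR), the serum response element, GAANNTTC or TTCNNGAA (paired heat shock units), TGACNNNGC (the core of the antioxidant response element) and the androgen response element. With the base before the start counted as -1, DUSP1 matched TGACGTCA at -125 to -118 and the antioxidant core at -115 to -107, without overlap. The KLF6 window had 1 match, to the EGR motif at -65 to -57, and the JUN window had 1, to the heat shock motif at -150 to -143. EGR1 held a pair of serum response elements, at -105 to -96 and -83 to -74, and an EGR match at -198 to -190. Of 27305 genes with a window of this length, 1 window each, 1.77% held TGACGTCA, 1.14% a serum response element, 8.25% the EGR motif and 11.7% the heat shock motif, and 3013 of the windows held the antioxidant core. RefSeq promoter entries were matched for 9 of the 10 members, and IER3 is named only. These matches are letters and not bound sites, and the windows end 250 bases before the start.

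The arrays were alike in scale, with medians between 52.4 and 54.5, and across probe sets the log2 values of 2 arrays had an r of 0.996 to 0.998 inside a group, against 0.975 to 0.985 for arrays of different groups. KLK3, which encodes prostate-specific antigen and is induced by androgen, averaged 7216 ± 384 on the gedunin arrays, 1341 ± 104 on the R1881-labelled arrays and 11839 ± 513 on the vehicle-labelled arrays (intensity, SD, n = 3 each). KLK2, TMPRSS2 and FKBP5 stood in the same order, which is opposite to the known androgen response if the labels vehicle and R1881 are right, so these 2 groups are called by their labels throughout and every direction below rests on labels that these genes contradict. All 6 luminal markers measured of 8 listed exceeded 52.4 in a group, against 0 of 2 basal, 3 of 5 fibroblast and 1 of 3 leukocyte markers. The mean log2 value of the luminal list, which holds KLK2 and KLK3, lay between 10.26 and 10.40 on the gedunin arrays, 9.34 and 9.45 labelled R1881 and 11.08 and 11.21 labelled vehicle. That of the basal list lay between 4.69 and 4.78 on the gedunin arrays, 4.62 and 4.66 on the R1881-labelled arrays and 4.72 and 4.79 on the vehicle-labelled arrays. The leukocyte list lay between 5.21 and 5.29 on the gedunin arrays, 5.08 and 5.21 labelled R1881 and 5.19 and 5.23 labelled vehicle. The fibroblast list lay between 5.64 and 5.70 on the gedunin arrays, 5.60 and 5.76 labelled R1881 and 5.61 and 5.70 labelled vehicle. The luminal list thus differed widely between groups, and its genes not all in the same direction: KRT8 averaged 732 on the gedunin arrays, 279.5 labelled R1881 and 2196 labelled vehicle, while FOLH1 averaged 376 on the gedunin arrays, 708 labelled R1881 and 268 labelled vehicle. The part of these marker differences in the results was not tested, and in bulk RNA fewer cells of a type and less RNA per cell cannot be told apart.

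On the gedunin arrays, 10 of the 19 probe sets were higher than on the R1881-labelled arrays and 0 were lower, with DUSP1 and KLF6 in front. The call is a Benjamini-Hochberg adjusted p under 0.05 in limma over all 22215 probe sets that are not controls, and over all of these 12.4% were called higher, 11.9% lower and 24.3% in either direction. By gene, all DUSP1 probe sets, 2 of 3 for KLF6, 3 of 4 for JUN, 2 of 3 for JUND and 1 of 2 for EGR1 rose, while FOS, FOSB, JUNB, IER2 and IER3 gave no call. At an unadjusted p under 0.05, 12 probe sets were higher and 0 lower. The median log2 fold change was 0.29 for the 19 member probe sets and -0.01 for all probe sets. With each gene counted once by its brightest probe set, the medians were 0.15 for the members and -0.01 for all genes. Among the members 2 probe sets, both of KLF6, were called with at least a 2-fold change, as were 2.26% of all probe sets. With 50 added to each intensity before log2, which shrinks the changes of low values, neither reached 2-fold (0.80 for 208961_s_at and 0.67 for 208960_s_at on the log2 scale), though both were still called. The groups did not overlap for 10 members, beside 34.6% of all probe sets.

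Against the vehicle-labelled arrays, 9 of 19 probe sets were higher on the gedunin arrays and 0 lower, where 12.9% of all probe sets were called higher, 10.6% lower and 23.5% in either direction. These were the probe sets of DUSP1, 2 of KLF6, 3 of JUN, 1 of EGR1 and the only one of IER2. At an unadjusted p under 0.05 the counts were again 9 and 0. The median log2 fold change was 0.18 for the 19 member probe sets and -0.01 for all probe sets. By the brightest probe set of each gene it was 0.12 for the members and -0.01 for all genes. Called changes of at least 2-fold numbered 0 among the members, beside 1.98% of all probe sets, and the groups did not overlap for 9 members, beside 35.5%. Both comparisons use the same gedunin arrays and so are not independent of each other. Between the R1881-labelled and vehicle-labelled arrays, 3 member probe sets were higher, 2 of JUN and the one of IER2, and 3 were lower, 2 of JUND and 1 of KLF6. That is 31.6% of the members, beside 27% of all probe sets, of which 14.8% were higher and 12.2% lower. Called changes of at least 2-fold numbered 0 here too, beside 3.08%, and 8 members did not overlap, beside 36.8%.

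**Figure D1:**
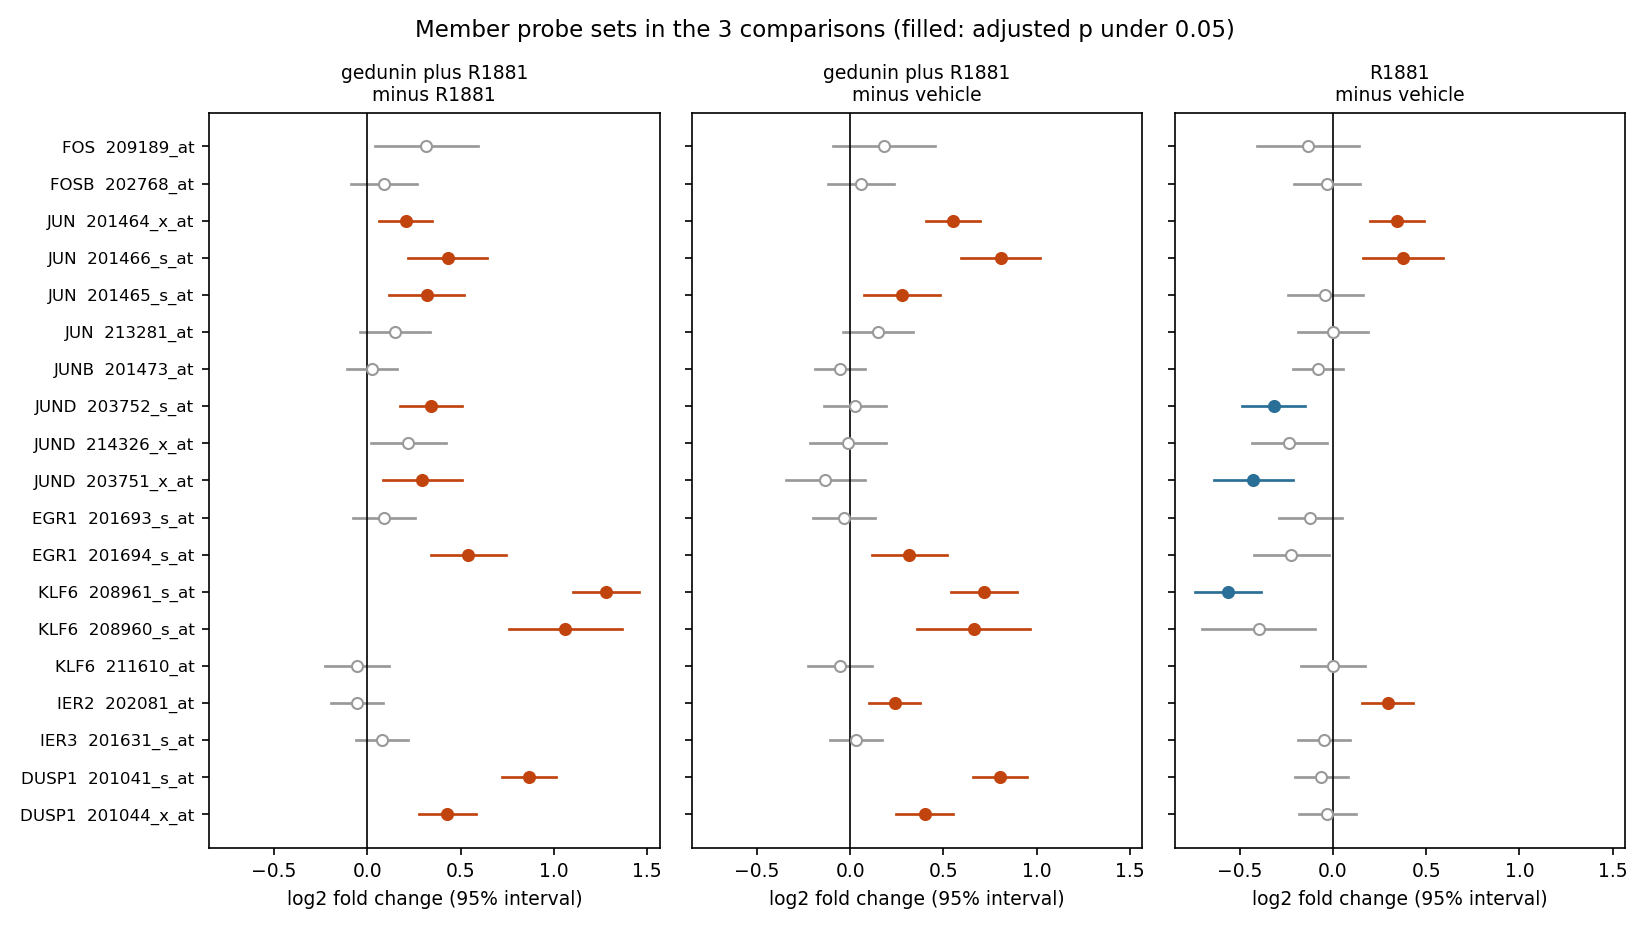
Log2 fold change (x axis) of the 19 member probe sets (rows) in the 3 comparisons, as points with 95% intervals from limma. Filled points have an adjusted p under 0.05, red for higher and blue for lower in the group named first, and the 2 panels with the gedunin arrays hold 10 and 9 red points and 0 blue ones.

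DUSP1, the MAP kinase phosphatase, rose on the gedunin arrays with both of its probe sets. Its probe set 201041_s_at measured 416, 398 and 370.3 on the gedunin arrays, against 220.0, 228 and 202 on the R1881-labelled arrays and 218, 234 and 225 on the vehicle-labelled arrays. Every gedunin array lay above all 6 others, and the other groups overlapped. The rise was 1.82-fold against the R1881-labelled arrays (log2 fold change 0.87 ± 0.07, SE, limma adjusted p = 6.4e-07) and 1.75-fold against the vehicle-labelled arrays (0.80 ± 0.07, adjusted p = 1.4e-06). Between the R1881-labelled and vehicle-labelled arrays the difference was -0.06, with a 95% interval from -0.21 to 0.08. The second probe set, 201044_x_at, was dimmer, at 55.7, 61.4 and 66.4 on the gedunin arrays, against 44.2, 47.9 and 43.9 labelled R1881 and 45.8, 45.0 and 48.0 labelled vehicle. It showed the same order with a smaller fold (0.43, adjusted p = 0.00049, and 0.40, adjusted p = 0.000929). The suffix _x_at marks probe sets with probes that can match other transcripts. Values under about 52.4, the lowest array median, can hardly be told from background, so a fold there is approximate. That median serves as a working line, since no detection calls were used.

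KLF6 encodes a zinc finger factor of the Krüppel-like family that is known as an early injury- and serum-responsive gene, and it is often studied as a growth suppressor in prostate cancer. Its probe set 208961_s_at measured 144, 136 and 119 on the gedunin arrays, against 57.8, 57.3 and 49.0 labelled R1881 and 78.2, 81.8 and 81.8 labelled vehicle. The 3 groups did not overlap, with the R1881-labelled arrays lowest. Gedunin arrays stood 2.43-fold above the R1881-labelled ones (1.28 ± 0.08, SE, limma adjusted p = 1.2e-07) and 1.65-fold above the vehicle-labelled ones (0.72 ± 0.08, adjusted p = 2.42e-05). The R1881-labelled arrays were 1.48-fold lower than the vehicle-labelled ones (-0.56 ± 0.08, adjusted p = 0.000157).

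The probe set 208960_s_at gave the same picture, with 146, 116 and 116 on the gedunin arrays, against 71.7, 65.0 and 46.2 labelled R1881 and 81.2, 81.9 and 74.1 labelled vehicle. Its changes were 1.06 ± 0.14 (limma adjusted p = 8.1e-05) and 0.66 ± 0.14 (adjusted p = 0.00337), in the same order. Between the R1881-labelled and vehicle-labelled arrays the groups did not overlap, yet the change of -0.40 ± 0.14 missed the threshold at adjusted p = 0.0517, and it depended on single arrays, at -0.53 with adjusted p = 0.0152 without R1881 replicate 1, the highest of its group, and -0.21 with adjusted p = 0.169 without R1881 replicate 3, the lowest. The change against the R1881-labelled arrays was under 2-fold without gedunin replicate 1 (0.95) or R1881 replicate 3 (0.87), and called in both cases. The third probe set, 211610_at, measured 52.7, 64.3 and 54.3 on the gedunin arrays, against 55.4, 63.5 and 58.6 labelled R1881 and 58.6, 60.8 and 57.6 labelled vehicle. It overlapped in all comparisons (-0.06, adjusted p = 0.707, and -0.05, adjusted p = 0.732). Over the 9 arrays the first pair of KLF6 probe sets correlated with r = 0.96, and 211610_at had r of -0.24 and -0.34 with them, as a description. The files do not say which part of the transcript each one reads.

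**Figure D2:**
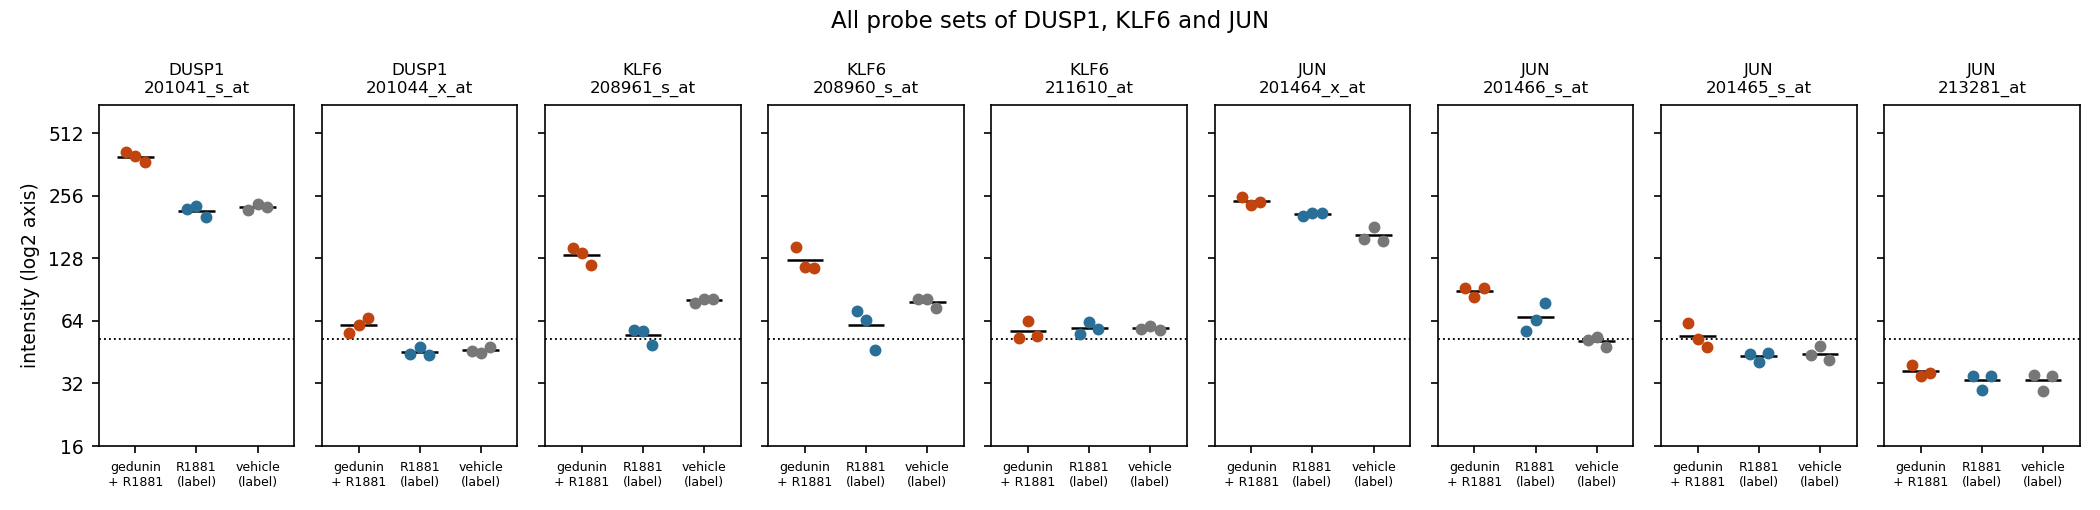
Intensity on a log2 axis for every probe set of DUSP1, KLF6 and JUN, with 1 point per array, a bar at the group mean and a dotted line at 52.4, the lowest array median. Gedunin arrays lie above all others for both DUSP1 probe sets and for 208961_s_at and 208960_s_at of KLF6, while 211610_at of KLF6 and 213281_at of JUN overlap between groups.

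Among the Jun proteins, which can form AP-1 with each other or with Fos, JUN and JUND had different orders of the groups. JUN, the founding member and a target of its own product, measured 253, 232 and 238 with probe set 201464_x_at on the gedunin arrays, against 205, 211 and 211 labelled R1881 and 158, 181 and 156 labelled vehicle. The groups stood apart, with gedunin highest and vehicle lowest. The gedunin arrays were 1.46-fold above the vehicle-labelled ones (0.55 ± 0.07, SE, limma adjusted p = 4.37e-05), and the R1881-labelled arrays were 1.27-fold above them (0.34 ± 0.07, adjusted p = 0.00155). The difference between the gedunin arrays and the R1881-labelled ones was small (0.20 ± 0.07, adjusted p = 0.0402), and leaving out any 1 of these 6 arrays gave an adjusted p between 0.0511 and 0.156.

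The probe set 201466_s_at repeated that order with 91.6, 83.5 and 92.6 on the gedunin arrays, against 57.3, 64.6 and 78.1 labelled R1881 and 51.7, 53.6 and 47.7 labelled vehicle. Here the changes were 0.43 ± 0.10 (limma adjusted p = 0.00521), 0.81 ± 0.10 (adjusted p = 4.37e-05) and, for labelled R1881 minus labelled vehicle, 0.38 ± 0.10 (adjusted p = 0.0111). The last one went to adjusted p = 0.0514 without vehicle replicate 3. The dimmer 201465_s_at gave 62.6, 52.2 and 48.0 on the gedunin arrays, against 44.2, 40.7 and 45.0 labelled R1881 and 43.7, 48.4 and 41.6 labelled vehicle. It was called in both gedunin comparisons (0.32, adjusted p = 0.0233, and 0.28, adjusted p = 0.0468). The first call was lost without gedunin replicate 1 (adjusted p = 0.102) or R1881 replicate 2 (0.0898), and the second without gedunin replicate 1 (0.199) or 2 (0.0788) or vehicle replicate 1 (0.127) or 3 (0.17). The fourth probe set, 213281_at, lay between 29.5 and 39.4 on all arrays and was not called.

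JUND, which is known for steady expression and weak induction by serum, was lower on the R1881-labelled arrays than in either other group. Its probe set 203752_s_at measured 442.5, 438 and 516 on the gedunin arrays, against 349.7, 387 and 362 labelled R1881 and 488, 454 and 428 labelled vehicle. The R1881-labelled arrays lay below all others, and the gedunin and vehicle groups overlapped. The change was 0.34 ± 0.08 for gedunin minus labelled R1881 (limma adjusted p = 0.00476), 0.03 with a 95% interval from -0.14 to 0.19 for gedunin minus labelled vehicle, and -0.32 ± 0.08 for labelled R1881 minus labelled vehicle (adjusted p = 0.00719). The dim 203751_x_at had the same directions in the comparisons with the R1881-labelled arrays (0.29, adjusted p = 0.0447, and -0.43, adjusted p = 0.00513). The first of these was lost on leaving out gedunin replicate 1 or 3 or any R1881-labelled array, with adjusted p between 0.0525 and 0.193. The third JUND probe set, 214326_x_at, was under 52.4 on all 9 arrays, as was 203751_x_at. Probe set 214326_x_at was called in no comparison (0.22, -0.01 and -0.23). In each comparison with the R1881-labelled arrays 1 of 12 alternatives called it, the one without R1881 replicate 2 (adjusted p = 0.033 and 0.0252). Without gedunin replicate 3 its change against the R1881-labelled arrays was 0.13 with adjusted p = 0.412, and its adjusted p between the R1881-labelled and vehicle-labelled arrays reached 0.259 without vehicle replicate 1. JUNB, whose product is known to counter JUN at some targets, lay between 42.9 and 49.8 on all arrays. Its 95% intervals were -0.11 to 0.16 for gedunin minus labelled R1881, -0.19 to 0.08 for gedunin minus labelled vehicle, and -0.21 to 0.06 for labelled R1881 minus labelled vehicle.

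**Figure D3:**
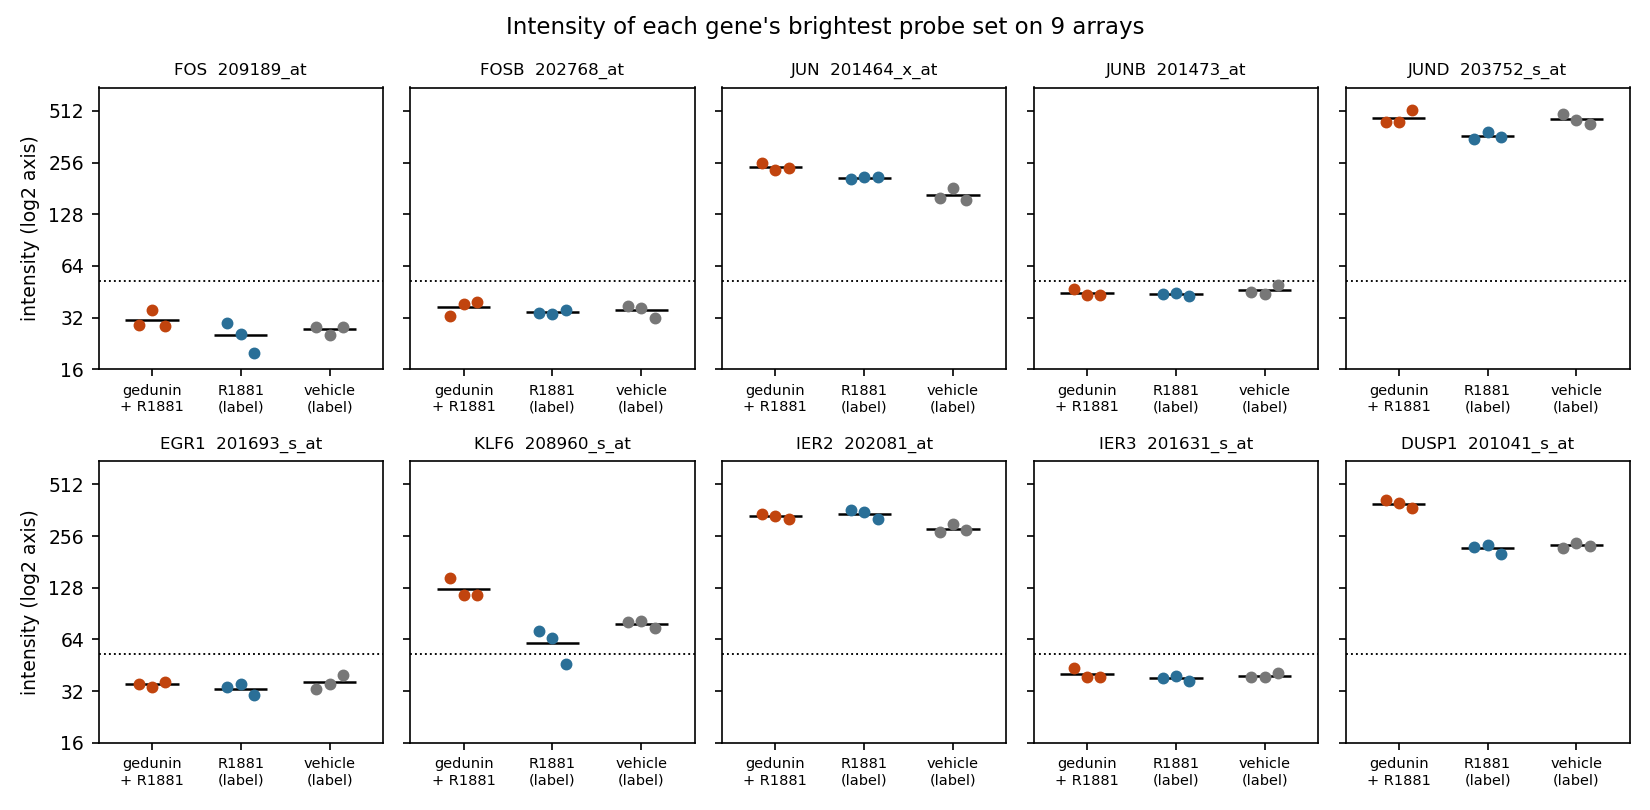
Intensity on a log2 axis for the brightest probe set of each of the 10 genes, with 1 point per array, a bar at the group mean and a dotted line at 52.4, the lowest array median. FOS, FOSB, JUNB, EGR1 and IER3 lie under the line on all 9 arrays, and DUSP1 and KLF6 show the widest gap between the gedunin arrays and the rest.

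The Fos partners stayed dim. FOS measured 29.2, 35.6 and 28.6 on the gedunin arrays, against 29.9, 25.7 and 20.0 labelled R1881 and 28.2, 25.4 and 28.2 labelled vehicle. All 9 values were under 52.4, so without detection calls a level cannot be told from background here and a fold would be approximate. The differences were 0.32 ± 0.13 (SE, limma adjusted p = 0.096) against the R1881-labelled arrays and 0.18 ± 0.13 (adjusted p = 0.375) against the vehicle-labelled ones. The first depended on single arrays, at 0.45 with adjusted p = 0.0167 without R1881 replicate 1, the brightest of its group, 0.16 with adjusted p = 0.321 without R1881 replicate 3, the dimmest, and 0.22 with adjusted p = 0.324 without gedunin replicate 2. It was called in 1 of 13 alternatives. FOSB, whose truncated form is known for its stability in neurons, ranged from 31.7 to 39.2 with intervals of -0.08 to 0.27 for gedunin minus labelled R1881, -0.12 to 0.23 for gedunin minus labelled vehicle and -0.21 to 0.14 for labelled R1881 minus labelled vehicle.

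EGR1, a zinc finger factor and a classic serum response target that carries the pair of serum response elements printed above, was also under 52.4 on all arrays with both probe sets. Probe set 201694_s_at measured 29.4, 35.7 and 32.3 on the gedunin arrays, against 19.3, 23.6 and 24.1 labelled R1881 and 26.0, 27.4 and 24.7 labelled vehicle. The groups stood apart, with gedunin highest and R1881 lowest. The change was 0.54 ± 0.09 against the R1881-labelled arrays (limma adjusted p = 0.000682) and 0.32 ± 0.09 against the vehicle-labelled ones (adjusted p = 0.0244). The second call ended without gedunin replicate 2 (adjusted p = 0.112) or 3 (0.0639) or vehicle replicate 1 (0.067) or 3 (0.0947). The other probe set, 201693_s_at, ranged from 30.2 to 39.6, gave 0.09 and -0.03 with adjusted p = 0.503 and 0.84, and followed the first with r = 0.13 over 9 arrays, so the EGR1 rise rests on 1 dim probe set.

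IER2, a small nuclear protein gene of the immediate early class, was bright and gave no call between the gedunin and R1881-labelled arrays. It measured 342, 334 and 323 on the gedunin arrays, against 362, 353 and 323 labelled R1881 and 269, 299 and 279 labelled vehicle. The gedunin and R1881 groups overlapped and both lay above the vehicle-labelled arrays. The change was 0.29 ± 0.06 for labelled R1881 minus labelled vehicle (SE, limma adjusted p = 0.00335) and 0.24 ± 0.06 for gedunin minus labelled vehicle (adjusted p = 0.0141). The gedunin comparison lost its call without gedunin replicate 1 (0.0586) or vehicle replicate 1 (0.0662). For gedunin minus labelled R1881 the interval ran from -0.19 to 0.08. IER3, a stress-responsive survival gene, ranged from 36.5 to 43.5 over all arrays and was called in no comparison, with adjusted p = 0.458, 0.813 and 0.653.

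KLF6 208960_s_at was the only brightest member probe set whose group means spanned at least 1 log2 unit. It was compared with 829 candidates and not with all probe sets. The candidates were probe sets of other genes that also spanned at least 1 log2 unit and averaged at least the lowest array median. Among them the 3 most like KLF6 208960_s_at over the 9 arrays were those of CEMIP2 (r = 0.95), ISG20 (0.95) and ATF4 (0.95). The 9 points form 3 treatment groups, so these values are a description. On geometric means CEMIP2 stood at 136 on the gedunin arrays, 55.2 labelled R1881 and 78.2 labelled vehicle. ATF4, a stress-induced bZIP factor, stood at 4558 on the gedunin arrays, 2188 labelled R1881 and 2785 labelled vehicle.

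Genes around the members were taken from 6 lists, 75 of whose 82 genes had a probe set of 1 symbol, and each gene is given by its brightest one. On the gedunin arrays 18 were higher and 8 lower than on the R1881-labelled arrays, 34.7% in all, beside 26.7% of all genes by their brightest probe sets (13.7% higher and 13% lower). Against the vehicle-labelled arrays 10 were higher and 12 lower, 29.3% beside 26.2% of all genes (14.8% higher and 11.4% lower). Between the R1881-labelled and vehicle-labelled arrays 12 were higher and 19 lower, 41.3% beside 29.5% of all genes (16.3% higher and 13.2% lower). Their median log2 fold change was 0.02, -0.02 and -0.06 in these comparisons, and -0.01, -0.01 and 0.00 over all genes.

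Of 7 measured genes for further AP-1 partners, 1 was called in both gedunin comparisons, ATF3, a stress-induced bZIP factor that can pair with Jun. It averaged 545 ± 68.2 on the gedunin arrays, 94.9 ± 3.78 on the R1881-labelled arrays and 151 on the vehicle-labelled ones, where the 3 deposited values are equal (intensity, SD, n = 3 each). It was 5.71-fold above the R1881-labelled arrays (limma adjusted p = 2.67e-10) and 3.60-fold above the vehicle-labelled ones (adjusted p = 3.84e-09). FOSL1, FOSL2, BATF, BATF3, ATF2 and ATF7 gave no call in either comparison. On the R1881-labelled arrays ATF3 (-0.67, adjusted p = 3.14e-05) and ATF2 (-0.28, adjusted p = 0.0238) were lower than on the vehicle-labelled ones. The other ATF2 probe set gave -0.06 there.

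Of 6 genes of serum response factor and its cofactors, 0 were higher and 1 lower on the gedunin arrays than on the R1881-labelled ones, 0 and 2 against the vehicle-labelled ones, and 1 and 1 between the R1881-labelled and vehicle-labelled arrays. SRF itself was not called (0.05, -0.04 and -0.09). ELK4, a ternary complex factor gene that is known as androgen-regulated, averaged 96.6 ± 3.56 on the gedunin arrays and 97.4 ± 6.74 on the R1881-labelled ones, against 352 ± 29.5 on the vehicle-labelled ones. Its changes against the vehicle-labelled arrays were -1.87 and -1.85, where another ELK4 probe set gave -0.44 and -0.42. MRTFB, an actin-regulated cofactor, was lower on the gedunin arrays in both comparisons (-0.65, limma adjusted p = 4.28e-06, and -0.40, adjusted p = 0.000306). Of 7 MAP kinase genes, 2 were higher and 0 lower on the gedunin arrays than on the R1881-labelled ones, 1 and 1 against the vehicle-labelled ones, and 1 and 2 between the R1881-labelled and vehicle-labelled arrays. MAP2K4, a kinase upstream of JNK, averaged 205 ± 4.38 on the gedunin arrays, 121 ± 3.67 labelled R1881 and 291 ± 25.1 labelled vehicle, and all 3 differences were called. MAPK9, the gene of JNK2, was 0.62 higher on the gedunin arrays and 0.52 higher on the R1881-labelled arrays than on the vehicle-labelled ones, and its other probe set gave 0.18 and 0.20.

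DUSP1 was not alone among the phosphatases measured, since DUSP8 (0.37), DUSP10 (0.33) and DUSP2 (0.27) also rose against the R1881-labelled arrays, with limma adjusted p of 0.000693, 0.00978 and 0.0299, while DUSP4, DUSP5 and DUSP6 were not called. DUSP8 averaged 55.9 on the gedunin arrays and 43.3 on the R1881-labelled ones, the latter under 52.4, so its fold is approximate. Against the vehicle-labelled arrays, limma called 0 of these 6 other phosphatases, and 2 had an unadjusted p under 0.05. Of 39 other immediate early genes, 11 were higher and 7 lower on the gedunin arrays than on the R1881-labelled ones, 46.2% beside 26.7% of all genes. Against the vehicle-labelled arrays 8 were higher and 9 lower, 43.6% beside 26.2%. On the R1881-labelled arrays 10 were higher and 13 lower than on the vehicle-labelled ones, 59% beside 29.5%. Among these 39 genes the largest changes on the gedunin arrays against the R1881-labelled ones were a fall of MYC (-1.60), rises of CEBPB (1.32) and ID2 (1.12), and a fall of TRIB1 (-1.07). Against the vehicle-labelled arrays they were SGK1 (-2.46), RHOB (-1.30), ID1 (1.29) and GADD45A (1.25). For labelled R1881 minus labelled vehicle they were SGK1 (-2.96), TRIB1 (2.10), NFKBIA (-1.39) and KLF5 (-1.18). The lower group means of SGK1 (38.3) and TRIB1 (42.8) were under 52.4, so these folds are approximate. Of 10 genes known as AP-1 targets, TIMP1 was the only call in 3 comparisons (0.25 ± 0.08, adjusted p = 0.0423). It averaged 35.3 ± 4.04 on the gedunin arrays and 29.6 ± 1.82 labelled R1881, both under 52.4, so its fold is approximate. At an unadjusted p under 0.05 limma gave 1, 1 and 1 of these targets in the 3 comparisons, and 2 of the 10 genes averaged over 52.4.

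**Figure D4:**
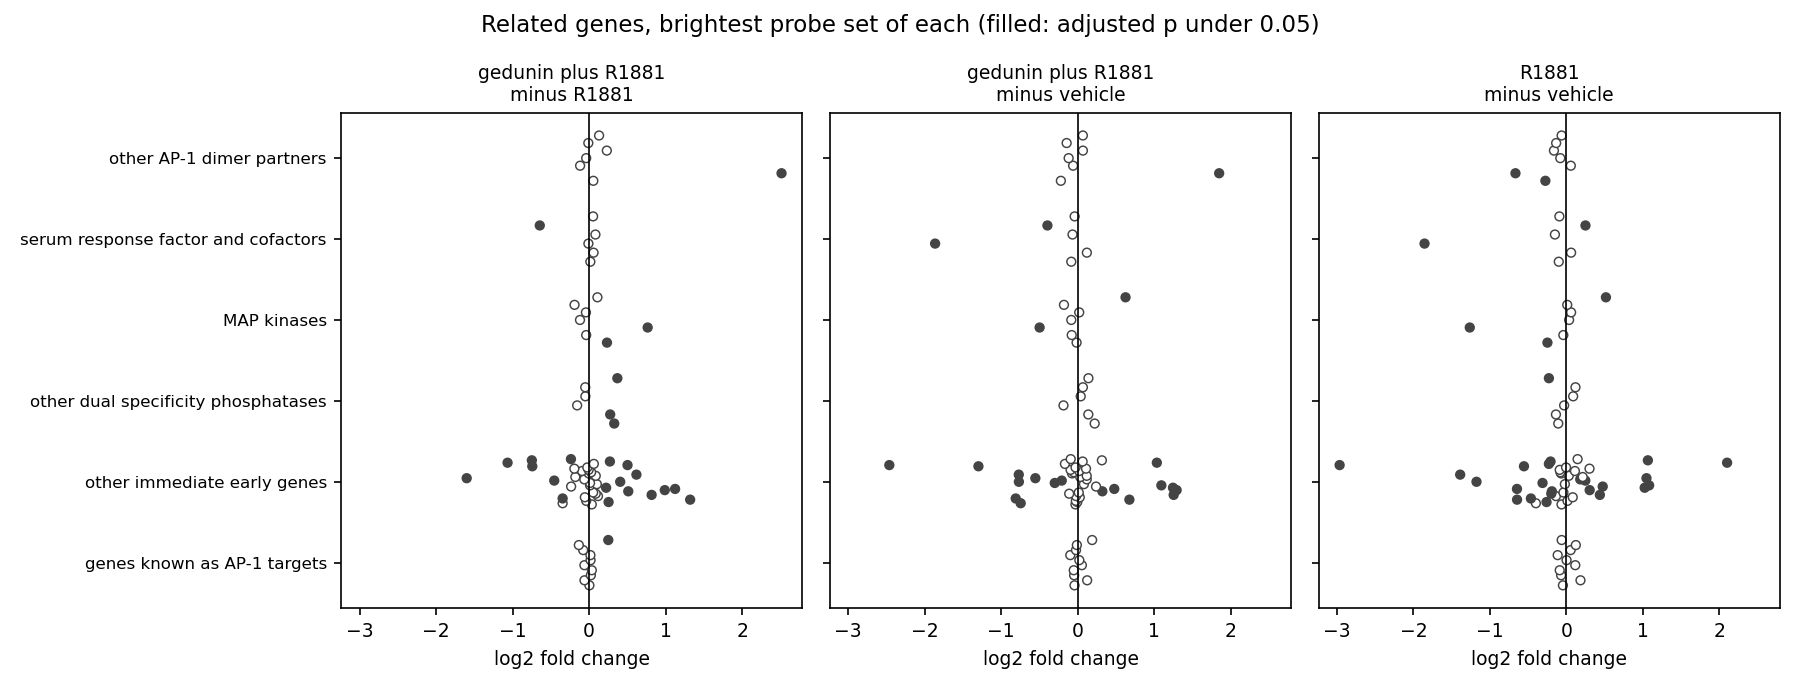
Log2 fold change (x axis) of the brightest probe set of each of 75 related genes, by list (rows), in the 3 comparisons, with filled points at an adjusted p under 0.05. ATF3 is the filled point far to the right in the top row of both gedunin panels, at 2.51 and 1.85, and the AP-1 targets in the bottom row cluster around 0.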

How the data were processed

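Total RNA was extracted with Trizol and labelled as biotinylated cRNA, per the labels' protocols. For each array the authors deposited linear intensity values, 1 for every probe set, and the submitters' processing notes name RMA; its version is not given in the sources used here. RMA corrects background and gives the arrays nearly equal distributions, which hides any shift common to all transcripts. Precision is limited by 3 arrays per group. Between 491 and 957 probe sets had exactly equal values in a pair of arrays.

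Intensities were taken to log2 and fitted with limma 3.58.1 in R 4.3.3 (lmFit, 1 coefficient per group, all 9 arrays; eBayes without trend). The fit covered 22215 probe sets after 62 controls were left out, with no filter on dim ones, two-sided tests and Benjamini-Hochberg adjustment over all of them. Fold changes are the first group minus the second, with limma's standard errors; errors of intensities are SDs. Symbols came from the platform annotation: 19064 probe sets had 1 symbol, 1043 several and 2108 none, and none of the symbols changed against RefSeq. Of 19064, 12 had no match there.

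Named genes are all member probe sets, up to 4 called genes per related list with the largest change, and 4 androgen-induced genes. Members, lists and tests were chosen with earlier results of these data known. Other related genes named beside them, with their values, were picked after these were seen. Same-numbered arrays were not treated as pairs in the main fit, where 2 of 9 same-numbered pairs correlated over 0.1 (range -0.10 to 0.14). Correlations this weak cannot show whether the arrays were paired. Alternatives were 1 probe set per gene, leaving out dim probe sets, a variance trend, 2 groups per fit, the replicate block, an offset of 50, quantile normalisation, centring, and leaving out single arrays.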

Additional observations from a re-analysis of the deposited data

How the results depend on the processing

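Over all alternatives that could be run, 695 of 738 values of single member probe sets kept their side of the threshold, 32 lost the call and 11 gained one, and no call changed sign; 23 uncalled values did. DUSP1 201041_s_at and 208960_s_at of KLF6 were called in both gedunin comparisons under all 14 alternatives, as were DUSP1 201044_x_at under 12 and KLF6 208961_s_at under 13. With 1 probe set per gene, the brightest, 4 of 10 members were called against labelled R1881 and 4 of 10 against labelled vehicle. That is 40% in each comparison. In the main fit 26.7% and 26.2% of all genes were called by their brightest probe sets, and 52.6% and 47.4% of the 19 member probe sets. Genes with several called probe sets counted once with 1 probe set per gene, and EGR1, whose brightest probe set was not called, dropped out. Between labelled R1881 and labelled vehicle, 4 of 10 members were called with this setting, 2 higher and 2 lower. All genes called then numbered 3277, 3219 and 3624 of 11963 for gedunin minus labelled R1881, gedunin minus labelled vehicle and labelled R1881 minus labelled vehicle. Related genes called numbered 22 of 75 for gedunin minus labelled vehicle and 31 of 75 for labelled R1881 minus labelled vehicle. Without dim probe sets, 6 of the 8 members left were called against labelled R1881, beside 5050 of all 11337 probe sets left. With the replicate block, 8, 9 and 8 members were called in these comparisons, where JUN 201464_x_at (adjusted p = 0.0594) and JUND 203751_x_at (0.056) lost the call against labelled R1881, and EGR1 201694_s_at (0.0491) and KLF6 208960_s_at (0.00991) gained one between labelled R1881 and labelled vehicle. All probe sets called with the block numbered 5297, 5107 and 5897 of 22215. Leaving out single arrays gave 7 to 9, 6 to 9 and 5 to 7 members, and 31 to 35, 31 to 36 and 38 to 44 related probe sets. Over all probe sets it gave 4614 to 5300, 4286 to 4801 and 5209 to 5644 calls. JUN 201465_s_at lost its call against labelled vehicle with only 2 groups in the fit (0.0711), with the offset (0.0865) and on normalising again (0.0604), and against labelled R1881 with the offset (0.0518). JUND 203751_x_at lost its call against labelled R1881 with only 2 groups in the fit (0.0505) and with the offset (0.123), where its change was 0.10 in place of 0.29. By its construction the offset shrinks changes of low values: against labelled R1881, KLF6 208961_s_at went to 0.80 and 208960_s_at to 0.67, so that none of the members reached 2-fold, EGR1 201694_s_at to 0.19, DUSP1 201044_x_at to 0.22 and JUN 201466_s_at to 0.26, all still called. KLF6 208960_s_at passed between labelled R1881 and labelled vehicle in 7 of 14 alternatives. The causes of the other changes were not tested. Signals under 52.4 limit every probe set of FOS, FOSB, JUNB, EGR1 and IER3. They also limit JUND 203751_x_at and 214326_x_at and JUN 213281_at, which were under 52.4 on all 9 arrays. JUN 201465_s_at and DUSP1 201044_x_at were under it on 8 and 6 arrays, and JUN 201466_s_at on 2.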

Other observations

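The ID genes are early response genes whose products block the DNA binding of basic helix-loop-helix factors. ID1 and ID3 had the same order of groups and ID2 another. ID1 averaged 2451 ± 45.2 on the gedunin arrays, 1236 ± 38.9 labelled R1881 and 1001 ± 18.6 labelled vehicle (intensity, SD, n = 3 each). ID2 averaged 580.2 ± 16.6 on the gedunin arrays, 267 ± 11.1 labelled R1881 and 418 ± 26.2 labelled vehicle, the order seen for KLF6. ID3 averaged 603 ± 3.96 on the gedunin arrays and 517 ± 7.16 labelled R1881, against 255 ± 17.5 labelled vehicle. All 9 differences of these genes were called by limma, with adjusted p between 2.29e-09 and 0.0143. They were described after their values were seen.

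The NR4A nuclear receptors, another group of classic immediate early genes, showed no call with the brightest probe set of each gene. NR4A1 averaged 144 ± 5.82 on the gedunin arrays, 145 ± 6.68 labelled R1881 and 152 ± 7.57 labelled vehicle. Its brightest probe set gave -0.07 for gedunin minus labelled vehicle and -0.07 for labelled R1881 minus labelled vehicle. Another of its 3 probe sets gave -0.38 and -0.35 there. NR4A2, NR4A3, EGR3, ARC and GEM had group means under 52.4 in every group, and EGR4, at 89.3 ± 3.99 on the gedunin arrays, 83.0 ± 12.2 labelled R1881 and 90.6 ± 0.98 labelled vehicle, was not called. KLF10, induced by TGF-beta, averaged 64.1 ± 7.88 on the gedunin arrays and 64.3 ± 14.6 labelled R1881, against 30.0 ± 1.57 labelled vehicle (1.09, limma adjusted p = 4.38e-05, and 1.08, adjusted p = 3.77e-05). The lower group lies under 52.4, where a value can hardly be told from background, so the fold is approximate.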
